A study of Rattus norvegicus with 36 samples.

Results

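The small RNA of blood serum was set against that of the nucleus accumbens (NAc, the part of the ventral striatum that receives much of the brain's dopamine input) in rats that had self-administered heroin. The comparison takes all 6 serum and all 6 NAc libraries labelled heroin, 12 of the 36 libraries of the series, and every one of the 861 miRNA names in the table of counts, and no member was chosen by a measured value. The rats were male Sprague Dawley, 8 weeks old on arrival, and wore a jugular catheter. They could infuse heroin at 0.075 mg/kg per infusion for 6 hours a day over 10 daily sessions, and they were killed within 60 min of the last one. Rats of the saline group had the same surgery and the same sessions with saline in place of heroin, and 6 serum and 6 NAc libraries of such rats are set beside the heroin rats where this is said. Serum RNA came from a kit that isolates exosomes, the small vesicles that cells release, and NAc RNA was total RNA extracted with Trizol, so tissue and RNA preparation change together here and cannot be told apart. The labels call the 6 libraries of a group biological replicates. They do not tie the numbers of the tissues to 1 rat, and p-values measure the spread between libraries.

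MicroRNAs (miRNAs) are RNAs of about the length of the reads counted here that are cut from a hairpin precursor and guide Argonaute proteins to messenger RNAs. Bases 2 to 8 of the miRNA, the seed, decide most of the pairing with targets, and the strands from the left and right side of a hairpin are called its 5p and 3p arms. Some miRNAs are made in almost every cell, and others in 1 lineage, such as miR-451 in red cells, miR-122 in hepatocytes, miR-1 in striated muscle and miR-9 and miR-124 in neural cells. Cells release some of their miRNAs into blood, in vesicles and bound to proteins.

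Shown first are sequences of some leading miRNAs of each tissue and of others with large changes or as near copies. Their seeds and near copies bear on the counts. The sequences come from RefSeq (rat build GRCr8) with the seed in capitals.
miR-1-3p: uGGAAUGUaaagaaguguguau
miR-206-3p: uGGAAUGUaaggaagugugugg
miR-451-5p: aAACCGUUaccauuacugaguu
miR-223-3p: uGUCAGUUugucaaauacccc
miR-148a-3p: uCAGUGCAcuacagaacuuug
miR-9a-5p: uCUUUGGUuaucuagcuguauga
miR-9b-3p: aUACAGCUagauaaccaa
miR-7a-5p: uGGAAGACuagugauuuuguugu
miR-7b: uGGAAGACuugugauuuuguugu
miR-127-3p: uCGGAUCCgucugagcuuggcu
The muscle miRNAs miR-1-3p and miR-206-3p share a seed and differ at 3 of 22 bases, and the pair miR-7a-5p and miR-7b shares a seed and differs at 1 of 23. On GRCr8, 1 of the 3 copies of miR-9a-5p lies at chr1:142849415-142849437 on the plus strand, and miR-9b-3p lies at chr1:142849418-142849435 on the minus strand within it, so they are reverse complements over 18 bases. Their counts differed by 0.18% over the libraries. In all, 31 pairs of names had counts that differed by at most 5%, and of the 30 pairs with both sequences 29 were reverse complements over at least 16 bases. Which strand the reads of such a pair came from cannot be told from the counts, and each pair is named once below, by the more familiar name. The second names of these pairs took 6.55 to 11.6% of the counts of a serum library and 19.0 to 24.6% of those of a NAc library.

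Serum libraries held 162405 to 2777850 counts and NAc libraries 5894542 to 23757525. One count was worth 0.36 to 6.16 CPM in serum and 0.042 to 0.17 CPM in NAc, where CPM is the count per 1000000 counts of the library. At least 1 count was seen for 404 ± 58.2 names in serum and 656 ± 28.0 in NAc (SD, n = 6 each, two-sided exact permutation p = 0.0022, the smallest that 6 against 6 libraries can give). With every library thinned to 162405 counts the numbers were 347 ± 18.9 in serum and 380.0 ± 11.8 in NAc (exact permutation p = 0.0022), a difference of 252 names as sequenced and 32.5 names at equal depth. The tissue labels were checked with marker lists: 18 neuron-enriched miRNAs made up 1.85 to 3.78% of serum counts and 27.4 to 31.7% of NAc counts, and 8 red cell miRNAs 4.74 to 11.6% of serum counts and 0.0978 to 0.149% of NAc counts. The library labelled NAc heroin replicate 2 stood apart from the other 5. Its median Spearman correlation over 477 names was 0.951 with the other NAc heroin libraries and 0.966 with the prefrontal cortex libraries of heroin rats (0.970 to 0.980 and 0.955 to 0.967 in the other 5). With the serum libraries of heroin rats the median was 0.521 (0.440 to 0.473 in the other 5). In this library miR-7a-5p was at 25340 CPM, against 73482 to 115320 CPM in the other 5, and miR-122-5p was at 97.0 CPM, against 0.680 to 2.99. Values without it are given below where they change a call or count or move a value by over 1.5 times.

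The miRNA content of serum differed from that of the NAc for most names that could be tested. Of 439 names with enough counts, 405 were called at an adjusted p under 0.05 (92.3% of those tested, edgeR's quasi-likelihood test with Benjamini-Hochberg adjustment). 142 were higher (32.3%) and 263 lower (59.9%) in serum, and 383 calls had a log2 fold change of at least 1 in size (87.2%). The 2 groups did not overlap in CPM for 331 names (75.4%), with serum above for 136 (31.0%) and below for 195 (44.4%). Log2 fold changes are serum over NAc after TMM scaling, and their median over all 439 names was -2.18. With library size as the only scaling this median was -0.95, a shift of 1.22, and the calls were then 165 higher and 223 lower (42.5% of calls higher, against 35.1%). With NAc counts thinned to the depth of serum, 127 names were higher and 142 lower of 290 tested (47.2% of calls higher). The medians of lists below stand against the -2.18 of all names. Some names are members of several lists and count in each. Their counts stand against 32.3% higher and 59.9% lower, and counts without overlap against 31.0% above and 44.4% below. Among the scalings 36 of the 439 names changed sign, and a direction of such a name below holds for the scaling named.

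**Figure D1:**
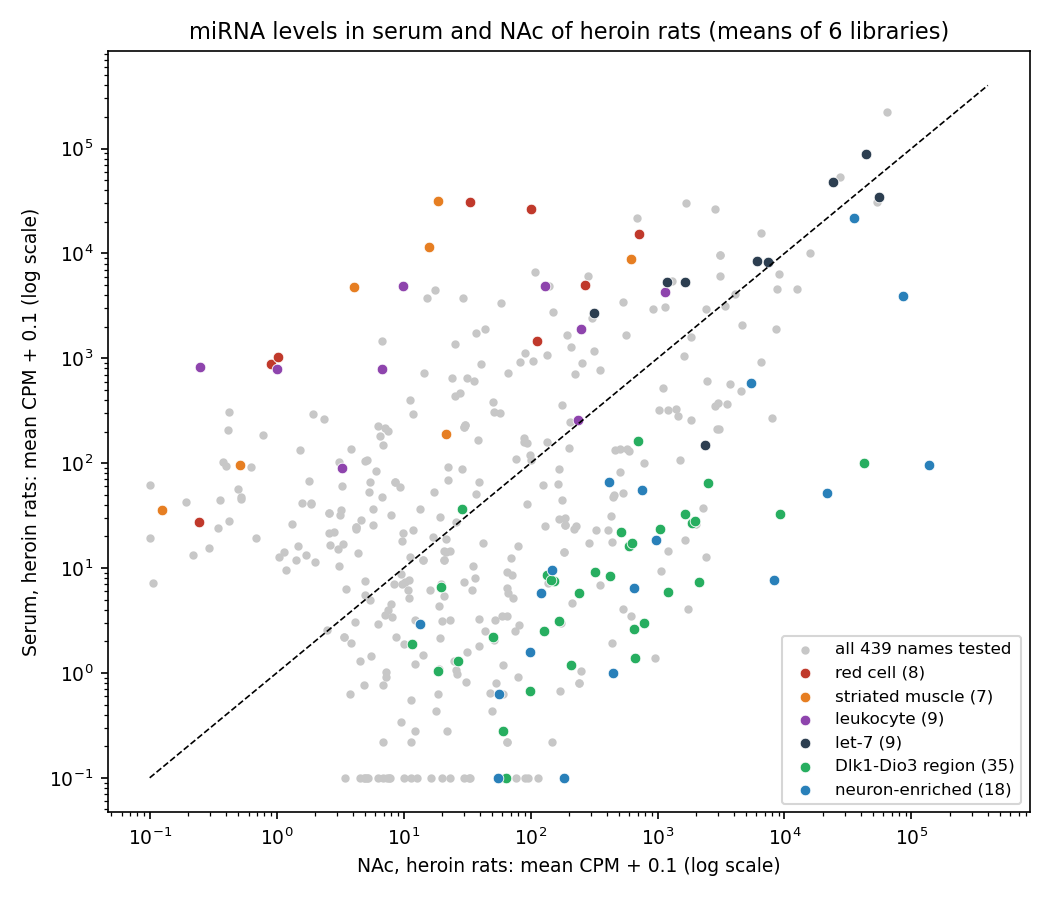
Mean CPM of each tested name in serum (vertical axis) and NAc (horizontal axis) of heroin rats, 6 libraries each, on log scales with 0.1 added; the dashed line marks equal CPM and coloured points are members of 6 lists. Red cell and striated muscle miRNAs lie far above the line, neuron-enriched and Dlk1-Dio3 miRNAs below it, and most let-7 miRNAs lie nearer to it, apart from let-7e-5p below it.

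Single miRNAs took large shares of both tissues. In serum miR-148a-3p, a miRNA abundant in liver and many other tissues, took 22.3 ± 9.9% of all counts (SD, n = 6), followed by let-7i-5p with 8.77%, miR-26a-5p with 5.30% and let-7g-5p with 4.84% on average. In the NAc miR-9a-5p led with 13.9 ± 2.2%, followed by miR-7a-5p with 8.61%, miR-148a-3p with 6.46% and let-7f-5p with 5.55%. With repeated names counted under both names, the 10 leading names took 62.1 ± 5.4% of serum counts and 69.1 ± 1.2% of NAc counts (exact permutation p = 0.028, two-sided). Second names of repeated pairs took 19.0 to 24.6% of NAc counts and 6.55 to 11.6% of serum counts. These shares therefore do not show in which tissue counts are more concentrated. All other ranks given here and below take repeated names once. Of the 10 leaders of each tissue, with repeated names taken once, 5 were shared: miR-148a-3p, let-7i-5p, miR-26a-5p, let-7g-5p and let-7f-5p. The 142 names called higher in serum took 27.8 to 48.0% of serum counts and 2.1 to 2.8% of NAc counts, while the 263 called lower took 13.9 to 23.6% of serum counts and 75.6 to 84.4% of NAc counts. The 34 names that were not called, led by miR-148a-3p, took 38.1 to 56.8% of serum counts and 13.0 to 22.3% of NAc counts. Across the 365 names used, the Spearman correlation was 0.919 to 0.974 between serum libraries, 0.956 to 0.991 between NAc libraries and 0.173 to 0.299 between a serum and a NAc library.

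Blood cell miRNAs were much higher in serum. All 8 red cell names rose, with a median log2 fold change of 6.64 against -2.18 over all names. For this and the next paragraphs the values of a tissue are the lowest, the median and the highest of its 6 libraries. miR-451-5p had 10420.4, 28409 and 54763 CPM in serum, against 19.2, 27.9 and 54.3 CPM in NAc, and miR-451, cut by Argonaute itself and made in maturing red cells, had a log2 fold change of 8.76 ± 0.57 (SE, adjusted p = 4.2e-11). Its neighbour in the genome followed: miR-144-3p had 233, 750.2 and 1807 CPM in serum, against 0.37, 0.724 and 1.44 CPM in NAc. miR-486 had 16984, 26353 and 34289 CPM in serum, against 72.0, 98.9 and 134 CPM in NAc, a log2 fold change of 6.88 ± 0.29 for this second leading red cell miRNA. None of these serum values came near a NAc value. The more widely made members changed less, with log2 fold changes of 3.24 for miR-25-3p, 2.99 for miR-92a-3p and 2.50 for miR-16-5p.

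**Figure D2:**
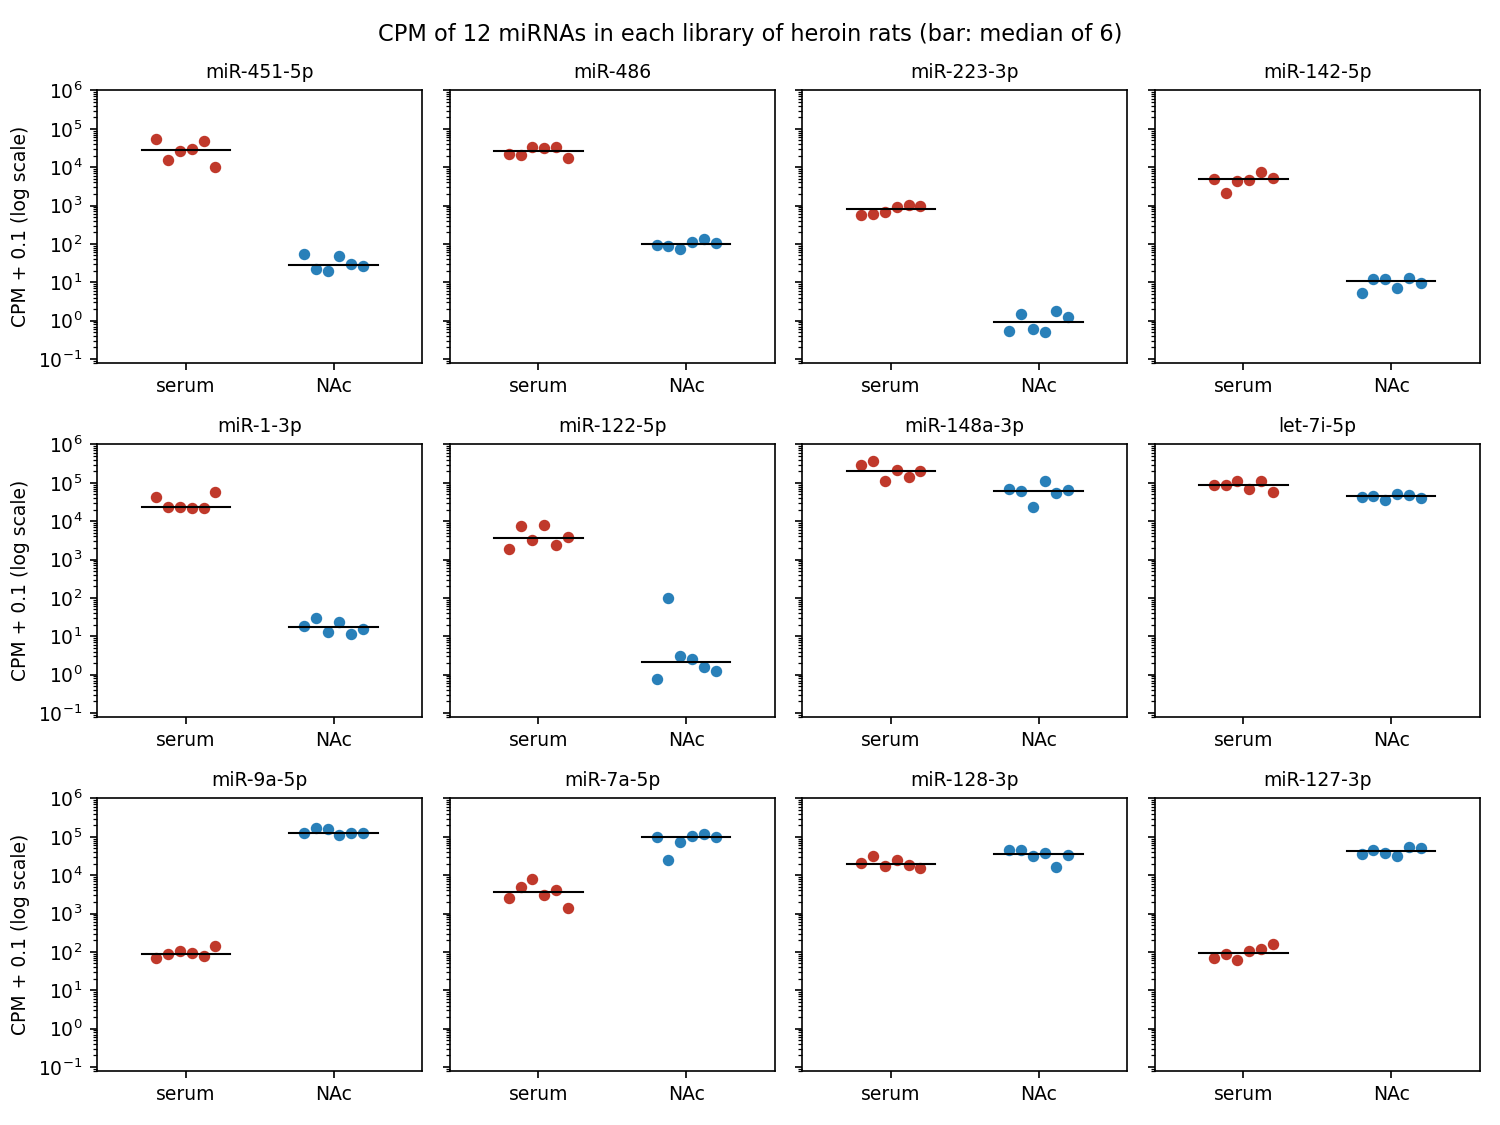
CPM of 12 miRNAs in each library of heroin rats (log scale, 0.1 added), serum on the left and NAc on the right of each panel, with a bar at the median of 6. Blood, muscle and liver miRNAs do not overlap between tissues, miR-148a-3p and miR-128-3p overlap, and 1 NAc library stands out in miR-122-5p (97.0 CPM) and miR-7a-5p (25340 CPM).

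Most leukocyte and platelet names rose as well. Of 9 leukocyte names 8 were higher and 1 lower (median 4.01), and of 9 platelet names 7 were higher, 1 lower and 1 was not called (median 2.92). Both lists hold miR-223-3p. miR-223, a miRNA of granulocytes, monocytes and platelets, gave the largest log2 fold change of all names above 100 CPM on its 5p arm: miR-223-5p had 486, 769 and 1154 CPM in serum, against 0, 0.122 and 0.396 CPM in NAc, a log2 fold change of 10.999 ± 0.62 (adjusted p = 7e-12). miR-223-3p had 564, 800.4 and 1006 CPM in serum, against 0.407, 0.807 and 1.65 CPM in NAc. For both arms all serum libraries lay above all NAc libraries. miR-142-5p had 2148, 4884 and 7578 CPM in serum, against 5.27, 10.6 and 12.9 CPM in NAc, for a miRNA found in most blood lineages, with a log2 fold change of 7.79 ± 0.37. The lymphocyte miRNAs miR-150-5p and miR-155-5p had log2 fold changes of 1.73 ± 0.21 and 3.65 ± 0.39, and miR-146a-5p, induced by inflammatory signals, 4.01 ± 0.31. miR-342-3p was the member called lower (-1.11), but at 0.13 by library size alone it was not. Among platelet names miR-199a-3p had 2079.8, 3414 and 7397 CPM in serum, against 17.0, 31.8 and 40.5 CPM in NAc, and miR-191a-5p, one of the 10 leaders of serum, had a log2 fold change of 2.92 ± 0.30. The endothelial and platelet miRNA miR-126a-3p was called lower at -1.16 with TMM and sat at 0.01 by library size alone.

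Striated muscle miRNAs had the highest median of all lists. All 7 tested names rose (median 8.49, all above every NAc library in CPM), and the 2 heart names miR-208a-3p and miR-208b-3p had too few counts to be tested. miR-1-3p had 21867, 23430.1 and 57917 CPM in serum, against 11.03, 16.9 and 30.2 CPM in NAc, a log2 fold change of 9.66 ± 0.46 (adjusted p = 5.5e-13), and miR-1-3p was the sixth of the leading names of serum. miR-206-3p had 7903, 8952 and 19460.2 CPM in serum, against 9.43, 10.7 and 38.8 CPM in NAc, for a miRNA of skeletal muscle, with a log2 fold change of 8.49 ± 0.50. miR-133a-3p had 1852, 4102 and 9051 CPM in serum, against 1.14, 3.04 and 9.16 CPM in NAc. For these 3 miRNAs the tissues did not overlap. miR-499-5p, hosted in a myosin gene, moved less, with a log2 fold change of 2.00 ± 0.34.

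The liver list was split. miR-122-5p had 1881, 3581 and 7834 CPM in serum, against 0.68, 2.02 and 97.0 CPM in NAc, and the log2 fold change of this hepatocyte miRNA was 7.12 ± 1.15 with all libraries and 10.05 ± 0.63 (SE) without the library labelled NAc heroin replicate 2, which alone was above 3 CPM in NAc. Of 7 tested names 2 were higher, 3 lower and 2 not called (median 0.40; by library size alone 4 higher and 3 lower). miR-192-5p, shared by liver and gut, had 929.9, 1604 and 2665 CPM in serum, against 362, 531 and 769.9 CPM in NAc, a log2 fold change of 0.40 ± 0.26 that was not called (adjusted p = 0.15) although the CPM ranges did not overlap. miR-101a-3p fell, with 373, 514 and 585 CPM in serum, against 3255, 4703 and 5609 CPM in NAc. The leader of serum, miR-148a-3p, was not called: it had 111979, 209782 and 381390.0 CPM in serum, against 23489, 63139.5 and 114378 CPM in NAc, and the groups overlapped (log2 fold change 0.78 ± 0.39, adjusted p = 0.064). By library size alone it was called higher, with a log2 fold change of 1.79 ± 0.33 (edgeR, adjusted p = 4.2e-05), and so it was with NAc thinned (2.51 ± 0.43).

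Epithelial and proliferation-linked clusters rose throughout. All 9 tested names of the miR-200 and miR-183 clusters, which are made in epithelia and sensory cells, were higher in serum (median 4.08, and 5.001 without NAc heroin replicate 2). miR-429 had 72.3, 153 and 449 CPM in serum, against 0.085, 0.29 and 0.509 CPM in NAc, a log2 fold change of 8.16 ± 0.54. miR-200a-3p had 602, 1349 and 2457 CPM in serum, against 0.842, 3.35 and 24.3 CPM in NAc, and its highest NAc value came from replicate 2. miR-375-3p had 207, 436 and 711 CPM in serum, against 8.5, 18.0 and 49.1 CPM in NAc, for a miRNA of pancreatic islets and other endocrine cells. Its list, gut and pancreas, was mixed: of 4 tested names 2 were higher, 1 lower and 1 not called (median 0.80). The lower member was miR-217-5p, with a log2 fold change of -2.21. By library size alone 3 of the 4 were higher and 1 was not called. All 11 names of the miR-17 cluster and its paralogs, known for driving cell growth, were higher (median 4.38). miR-17-5p had 317, 833 and 997 CPM in serum, against 5.7, 12.7 and 28.5 CPM in NAc, and miR-18a-5p had 24.2, 115 and 166 CPM in serum, against 0.085, 0.28 and 0.421 CPM in NAc. The predicted name novel_644 also passed the rule for the largest changes, with 80.0, 273 and 621 CPM in serum, against 0, 0.164 and 1.36 CPM in NAc.

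All 18 neuron-enriched miRNAs were called lower in serum, against 59.9% of all names, and 16 lay wholly below in CPM, against 44.4%. Their median log2 fold change was -7.12. It was -6.61 with the 2 members that had no serum count set at their bound, which is by library size alone. miR-9a-5p had 70.9, 89.4 and 146 CPM in serum, against 113189, 129592 and 168253 CPM in NAc, a log2 fold change of -11.64 ± 0.31 (adjusted p = 1.3e-16) for the most frequent miRNA of the NAc, which acts in neural progenitors and neurons. miR-129-5p had 18.5, 45.9 and 87.3 CPM in serum, against 16179, 21617 and 29150.3 CPM in NAc. miR-124-3p had 0, 5.58 and 16.3 CPM in serum, against 368, 709 and 946 CPM in NAc, for the miRNA best known as a mark of neurons. miR-153-3p had no count among the 4576715 of the 6 serum libraries, against 128, 175 and 274 CPM in NAc, which makes it at least 260.2-fold lower in serum with a floor of 3 counts over the serum group. The same held for miR-344a-3p, which is in no list: no serum count, 63.4, 115 and 161 CPM in NAc, and at least 187-fold lower. Both figures are by library size alone, without TMM scaling, and cover counting error only. Of the 439 names tested 28 had no serum count.

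Some neuron-enriched names stayed visible in serum. miR-128-3p, a brain miRNA that limits neuronal excitability, was the twelfth most frequent name of serum: miR-128-3p had 15772, 19829.9 and 31997 CPM in serum, against 16680.4, 35431 and 46097 CPM in NAc. The groups overlapped, and the log2 fold change of -1.77 ± 0.31 (adjusted p = 2.7e-05) was -0.69 by library size alone. miR-7a-5p had 1358, 3594 and 7746 CPM in serum, against 25339.5, 99404 and 115320.0 CPM in NAc, a log2 fold change of -5.59 ± 0.48 with the groups apart. miR-7b, which differs from miR-7a-5p at A10U (counted from 1 at the 5′ end, miR-7a-5p first), fell much further, with 0, 5.44 and 24.6 CPM in serum, against 2969, 9151 and 10293 CPM in NAc, and a log2 fold change of -11.60 ± 0.57. The 2 names share 22 of 23 bases, so the counting could split their reads, and the split is uncertain. miR-218a-5p and miR-383-5p had serum medians of 553 and 58.2 CPM, against NAc medians of 5809 and 411 CPM.

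Activity-linked miRNAs fell too. All 7 tested names of this list were lower in serum (median -6.35, with no overlap in CPM for any). miR-212-5p had 0, 3.63 and 9.46 CPM in serum, against 1188, 1747 and 2087 CPM in NAc, a log2 fold change of -10.04 ± 0.42 (adjusted p = 2.2e-13). miR-132-3p had 2.52, 18.5 and 21.1 CPM in serum, against 826, 1099 and 1928 CPM in NAc, from the same transcript, which neurons induce through the factor CREB. miR-138-5p, a miRNA found at dendrites, had 2.52, 10.7 and 15.8 CPM in serum, against 89.7, 140.4 and 222 CPM in NAc. The activity list shares miR-138-5p with the neuron-enriched list and miR-485-5p with the Dlk1-Dio3 list. All 7 tested names of the striatal and Htr2c-hosted list fell as well (median -7.51). Among them miR-7a-5p and miR-7b also count as neuron-enriched, and miR-212-3p as activity-linked. miR-1298 had 6.16, 17.2 and 34.1 CPM in serum, against 639, 1745 and 2443 CPM in NAc, for a miRNA hosted in the serotonin receptor gene Htr2c. miR-448-3p of the same host had 2 counts in the 6 serum libraries together and 13.9, 50.1 and 83.0 CPM in NAc. Without the library labelled NAc heroin replicate 2, which held 2.91% of its counts in this list against 8.29 to 12.8% in the other 5 NAc libraries, all 7 names were still lower (median -7.73).

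The Dlk1-Dio3 region is an imprinted stretch of rat chromosome 6 whose miRNAs come from the maternal copy and are made chiefly in brain and placenta. It was the longest list, so its number of low names was also the largest. Of 35 tested names 34 were lower in serum, against 59.9% of all names, and none was higher. The median was -6.82, or -6.69 with the 1 member that had no serum count at its bound by library size alone. A further 5 names had too few counts to be tested. miR-127-3p had 61.6, 95.7 and 163 CPM in serum, against 30769, 41525 and 54594 CPM in NAc, a log2 fold change of -9.86 ± 0.31 (adjusted p = 1.8e-15), and it was the sixth most frequent name of the NAc. miR-379-5p had 9.7, 33.5 and 60.2 CPM in serum, against 5307, 9069 and 12075 CPM in NAc. miR-543-3p had 0, 2.39 and 6.16 CPM in serum, against 381, 764 and 1099 CPM in NAc. No serum library came near the NAc range for these 3. miR-329-5p had 2 counts in 2 of the 6 serum libraries, against 605, 994 and 1159.7 CPM in NAc, and miR-758-3p had 2 counts in 1 serum library, against 78.7, 118 and 316 CPM in NAc. miR-494-3p was the member that was not called (log2 fold change -0.93 ± 0.48, and 0.34 by library size alone), and without NAc heroin replicate 2 all 35 were lower. By position on GRCr8 with hairpins joined at up to 10 kb, the cluster that starts with Mir379 had 40 tested names, 39 lower and 1 not called, and the neighbouring cluster with Mir127 had 13 of 13 lower.

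Glial and other brain lists had mixed members. Of 6 oligodendrocyte names 5 were lower and 1 higher (median -5.92): miR-219a-2-3p had 14.4, 22.0 and 47.2 CPM in serum, against 1621, 1905 and 2483 CPM in NAc, for a miRNA needed for myelinating cells to mature, and miR-338-3p had 2 counts in 1 serum library, against 36.9, 62.6 and 99.4 CPM in NAc. The 5 lower names and the median include miR-219b, whose counts repeat those of miR-219a-2-3p. The member that rose was miR-23a-3p (1.81 ± 0.37), which blood and endothelial cells also make. In the list of choroid plexus and ciliated cells miR-204-5p had 4.85, 24.4 and 37.8 CPM in serum, against 159.8, 394 and 660.3 CPM in NAc, a fall of the leading choroid plexus miRNA. Of 5 tested members 3 rose, among them miR-449a-5p of ciliated cells, which had 28.1, 44.1 and 63.1 CPM in serum, against 0.0814, 0.335 and 1.26 CPM in NAc, and miR-34c-3p, which had 22.1, 69.1 and 117 CPM in serum, against 0.813, 1.15 and 4.8 CPM in NAc. The vascular list went both ways, with 2 of 8 names higher, 4 lower and 2 not called, and 3 lower without NAc heroin replicate 2. Over all names 32.3% were higher and 59.9% lower. miR-10b-5p had 685, 1438 and 1939.5 CPM in serum, against 10.6, 15.1 and 81.1 CPM in NAc, a log2 fold change of 4.69 ± 0.48 for this miRNA of the Hox clusters, and 5.33 ± 0.35 (SE) without NAc replicate 2. miR-143-3p of smooth muscle was lower at -2.02 ± 0.28, with overlapping groups and -0.92 by library size alone. In bulk samples such as these, fewer cells of a type, or fewer vesicles from it, and less of a miRNA in each cannot be told apart.

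Widely made families were mixed or lower in serum. Over all names 59.9% were lower and 32.3% higher, and counts such as 5 of 7 lower were near that share. Among the 9 let-7 names, regulators of developmental timing and cell growth, 3 were higher, 4 lower and 2 not called (median -0.21), 5 were higher and 2 lower by library size alone, and 2 were higher and 4 lower without NAc heroin replicate 2. Among miR-29 names, which act on collagen and other matrix genes, all 6 were lower with TMM (median -2.90) and 3 of 6 by library size alone, where none was higher. miR-29b-3p had 12.3, 27.6 and 32.1 CPM in serum, against 118, 147 and 424 CPM in NAc. Of 7 miR-30 names 5 were lower and 2 not called (median -2.37), and by library size alone the 2, miR-30b-5p and miR-30e-5p, were called higher. miR-30a-5p had 3282, 4930.1 and 5557 CPM in serum, against 10025, 12475 and 15402 CPM in NAc. Of 7 names in the miR-99, miR-100 and miR-125 list 5 were lower and 2 not called (median -3.32): miR-99b-5p had 135, 263 and 371 CPM in serum, against 6556, 7977 and 9458 CPM in NAc, a log2 fold change of -6.09 ± 0.26. Its relative miR-99a-5p had 12013, 12931 and 24043 CPM in serum, against 3788, 6612 and 8905 CPM in NAc, with a log2 fold change of 0.08 ± 0.24 that was not called.

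**Figure D3:**
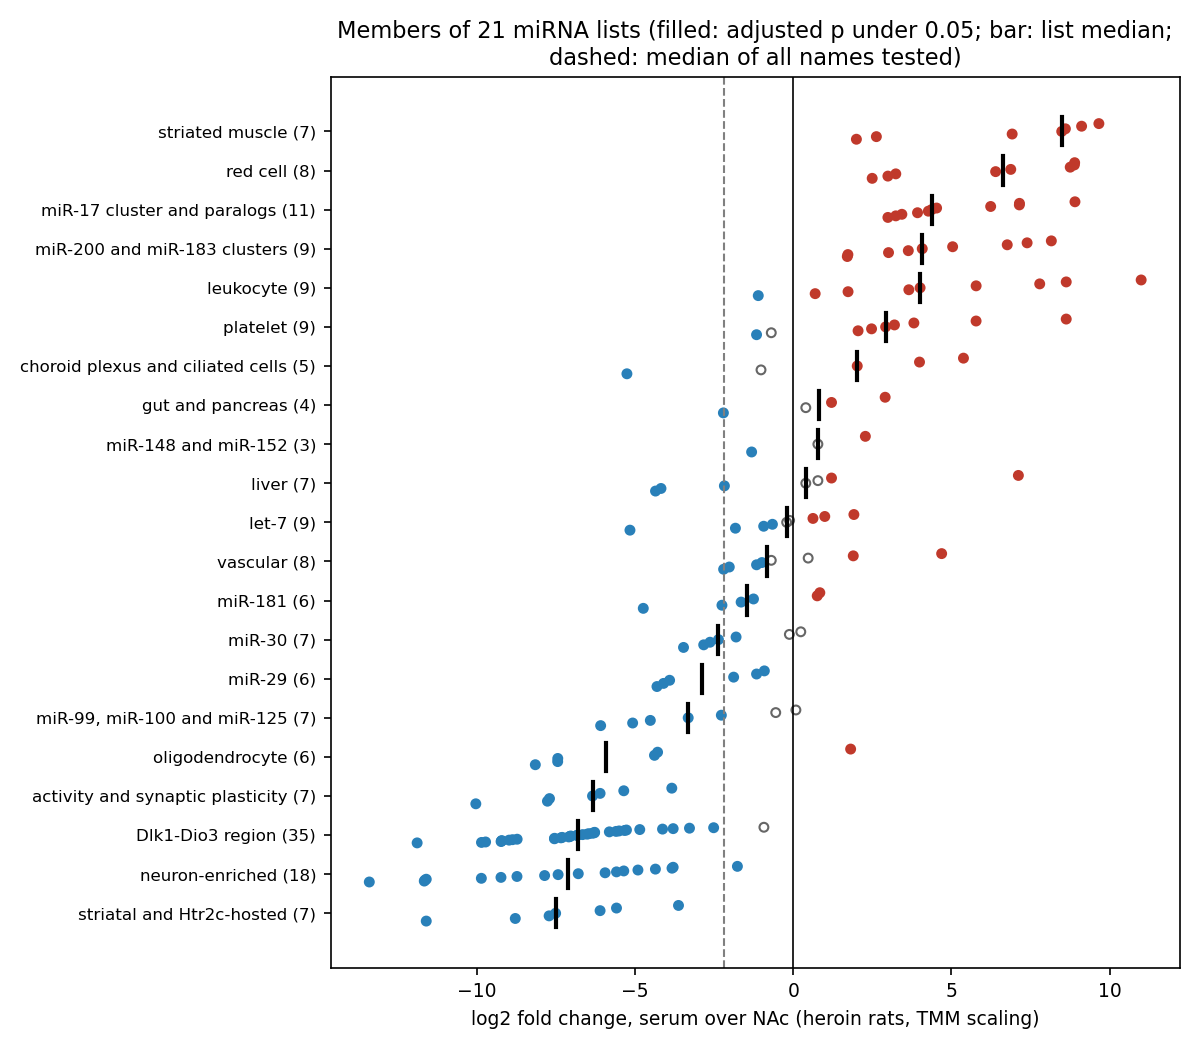
Log2 fold change, serum over NAc, of every tested member of 21 lists in heroin rats (number tested in brackets), ordered by list median (bar); filled points passed an adjusted p of 0.05 and the dashed line is the median of all tested names, -2.18. List medians run from -7.51 for the striatal list to 8.49 for striated muscle.

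Members of 1 seed family could move in opposite directions. Among the tested names with a RefSeq sequence, 39 groups of at least 2 shared a seed (103 names). All members were higher in 7 groups and lower in 16, and 10 groups held names called in both directions, 8 of them also by library size alone. The groups of miR-27 and miR-148 did not by library size alone. Over all tested names 32.3% were called higher and 59.9% lower. Whether groups of names without a shared seed would hold both directions as often was not tested. The sequences of 4 such families are shown because members with the same seed would be read as 1 regulator.
miR-363-3p: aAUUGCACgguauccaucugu
miR-32-5p: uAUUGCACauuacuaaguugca
miR-25-3p: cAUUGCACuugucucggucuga
miR-92a-3p: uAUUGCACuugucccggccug
miR-92b-3p: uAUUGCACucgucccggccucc
miR-27a-3p: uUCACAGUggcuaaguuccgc
miR-27b-3p: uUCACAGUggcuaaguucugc
miR-23a-3p: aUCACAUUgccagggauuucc
miR-23b-3p: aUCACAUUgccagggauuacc
miR-98-5p: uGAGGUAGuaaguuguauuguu
let-7i-5p: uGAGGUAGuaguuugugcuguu
let-7e-5p: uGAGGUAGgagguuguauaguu
In the family of miR-25 and miR-92, 4 names rose and miR-92b-3p fell. miR-363-3p had 174, 296 and 422 CPM in serum, against 1.26, 1.57 and 2.88 CPM in NAc, a log2 fold change of 6.24 ± 0.35, and miR-32-5p had 82.4, 207 and 283 CPM in serum, against 4.14, 7.48 and 10.5 CPM in NAc. miR-92b-3p had 31.7, 40.3 and 91.5 CPM in serum, against 358, 465 and 866 CPM in NAc, a log2 fold change of -4.59 ± 0.36 (adjusted p = 6.6e-10). miR-92b-3p differs from miR-92a-3p at U10C and G21C (miR-92a-3p first), and miR-92a-3p had a log2 fold change of 2.99 ± 0.33.

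With TMM scaling the families of miR-23 and miR-27 split by genomic cluster. By library size alone the miR-23 family still held calls in both directions, and the miR-27 family did not. miR-27a-3p had 3767, 7004 and 9057 CPM in serum, against 68.8, 95.5 and 196 CPM in NAc, a log2 fold change of 4.80 ± 0.30. miR-27b-3p had 4184, 6695 and 8015 CPM in serum, against 6053, 9072 and 12004 CPM in NAc, a log2 fold change of -1.66 ± 0.24 with overlapping groups, -0.52 by library size alone and 0.19 with NAc thinned to serum depth. The 2 miRNAs differ at C19U alone (miR-27a-3p first). miR-23a-3p rose by 1.81 ± 0.37 on the log2 scale, and miR-23b-3p, which differs at U19A, had -3.34 ± 0.30. With 1 base between them, reads of these pairs could be counted under either name, so the split is uncertain. The cluster with Mir23a and Mir27a on chromosome 19 had 5 of 5 tested names higher in serum. That with Mir23b and Mir27b on chromosome 17 held both directions, and miR-24-3p, which both clusters encode, counts in each.

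In the let-7 family let-7e-5p was the low member: let-7e-5p had 112, 158 and 179 CPM in serum, against 2106, 2435 and 2595 CPM in NAc, a log2 fold change of -5.16 ± 0.25 (adjusted p = 6.4e-13). miR-98-5p had 1178, 2428 and 4746 CPM in serum, against 209, 334 and 374 CPM in NAc, a log2 fold change of 1.92 ± 0.29 for the family's highest member. The most frequent member of serum, let-7i-5p, differs from let-7e-5p at 5 of 22 bases and had 56139.8, 87869 and 113162 CPM in serum, against 36279, 44163 and 51347 CPM in NAc. Its log2 fold change of -0.12 ± 0.23 was not called although every serum library had the higher CPM, with TMM factors of 1.07 to 1.79 in serum and 0.588 to 0.798 in NAc, and was 0.99 by library size alone. let-7f-5p fell (-1.83 ± 0.26), with -0.67 by library size alone. The family of miR-34 had miR-34a-5p lower (-3.04 ± 0.42) and miR-449a-5p higher (5.38 ± 0.54). That of miR-148 had miR-148b-3p lower (-1.32 ± 0.23, -0.21 by library size alone and 0.42 with NAc thinned) and miR-152-3p higher (2.28 ± 0.29).

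**Figure D4:**
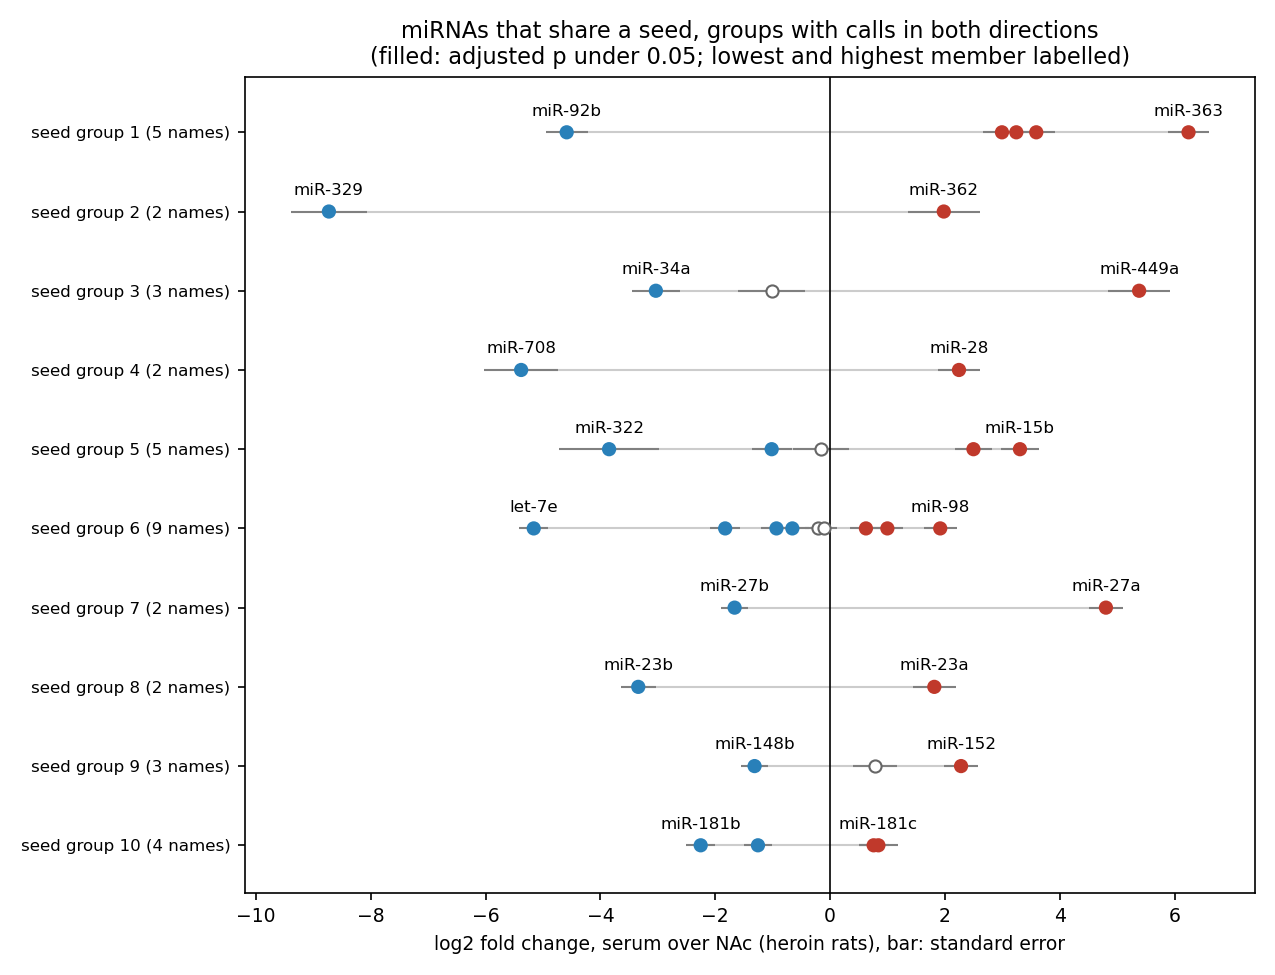
Log2 fold change with its standard error, serum over NAc in heroin rats, of the members of the 10 seed groups that held calls in both directions; filled points passed an adjusted p of 0.05. The widest group runs from miR-92b-3p (-4.59) to miR-363-3p (6.24).

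Joined at up to 10 kb on GRCr8, 35 clusters had at least 2 tested names: all were higher in 12, all lower in 9 and both directions were called in 6. These counts stand beside 32.3% of all tested names called higher and 59.9% lower, and groups of unclustered names were not counted. Some clusters had tested names of 1 hairpin alone, such as Mir6326 with Mir22, and a miRNA encoded in several clusters counts in each, as miR-17-5p, miR-19b-3p and miR-92a-3p do in those of Mir17 and Mir363. Those wholly higher include Mir144 with Mir451a (3 names, median log2 fold change 8.89), Mir1 with Mir133a1 (3 names, 9.12), the cluster that starts with Mir17 (7 names, 4.38) and Mir191 with Mir425 (4 names, 2.73). Wholly lower were Mir29b2 with Mir29c (4 names, -4.00) and Mir221 with Mir222 (4 names, -5.01).

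The 2 arms of a hairpin were compared within each library, so that scaling between libraries does not enter. Of 79 hairpins with at least 20 counts of both arms together in every library, 48 differed between tissues in the log2 ratio of 5p to 3p counts (60.8%, two-sided exact permutation test with Benjamini-Hochberg adjustment), and the groups did not overlap for 34 (43.0%). The ratio, with 0.5 added to each count, was shifted toward 5p in serum for 26 and toward 3p for 22. Depth bears on these ratios, since a minor arm with no count reads as a milder ratio in a shallow library: the largest shifts, of miR-101b, miR-101a and miR-328a, rest on 0 or 1 serum count of the 5p arm. With the arms of both tissues thinned to equal depth, an alternative added after seeing the data, their shifts were 0.00, 0.27 and 0.00 (adjusted p = 1.00, 0.90 and 1.00). Among shifts toward 3p, miR-186, miR-192 and miR-181d had no 3p count in serum and at most 2 in NAc, and none was called after thinning. Of the 48 hairpins called as deposited, 11 were not called after thinning. In all 37 hairpins were called both ways in the same direction, 29 of them with at least 10 counts of each arm in each tissue. In 2 hairpins the leading arm of the mean ratio differed between tissues. miR-30e had 90.6 ± 3.8% of its counts on the 5p arm in serum and 43.7 ± 6.1% in NAc (SD, n = 6 each, adjusted exact permutation p = 0.0050), and its 3p arm, at 205, 287 and 343 CPM in serum, against 1266, 1429 and 1788 CPM in NAc, was the arm that fell. The 5p arm of miR-30e led in 6 of 6 serum libraries and 1 of 6 NAc libraries. miR-3559 had 44.2 ± 9.6% on the 5p arm in serum and 92.7 ± 0.8% in NAc (adjusted exact permutation p = 0.0050), and its 5p arm led in 2 of 6 serum libraries and 6 of 6 NAc libraries.

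Among the other hairpins called both ways, miR-34c had 74.6 ± 8.0% of its counts on the 5p arm in serum and 99.0 ± 0.5% in NAc. miR-221 had 1.69 ± 0.68% on the 5p arm in serum and 22.9 ± 10.6% in NAc. miR-142 had 85.6 ± 3.0% in serum and 59.9 ± 12.5% in NAc. miR-10a had 97.2 ± 1.4% in serum and 99.9 ± 0.1% in NAc, and miR-10b 95.5 ± 2.0% in serum and no 3p count among 1542 counts in NAc. miR-322 had 1.21 ± 2.75% in serum, from 4 counts of the 5p arm, and 12.9 ± 3.6% in NAc. miR-203a had 1.09 ± 1.20% on the 5p arm in serum and 20.5 ± 8.8% in NAc, and miR-203b, whose counts mirror those of miR-203a with the arms exchanged, 98.9 ± 1.2% in serum and 72.2 ± 10.4% in NAc. miR-3559, miR-221 and miR-142 were chosen after their values were seen. Of the 37 hairpins called both ways, 29 could also be measured in saline rats, and all 29 shifted the same way there; saline libraries had the same gap in depth between tissues and were not thinned.

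**Figure D5:**
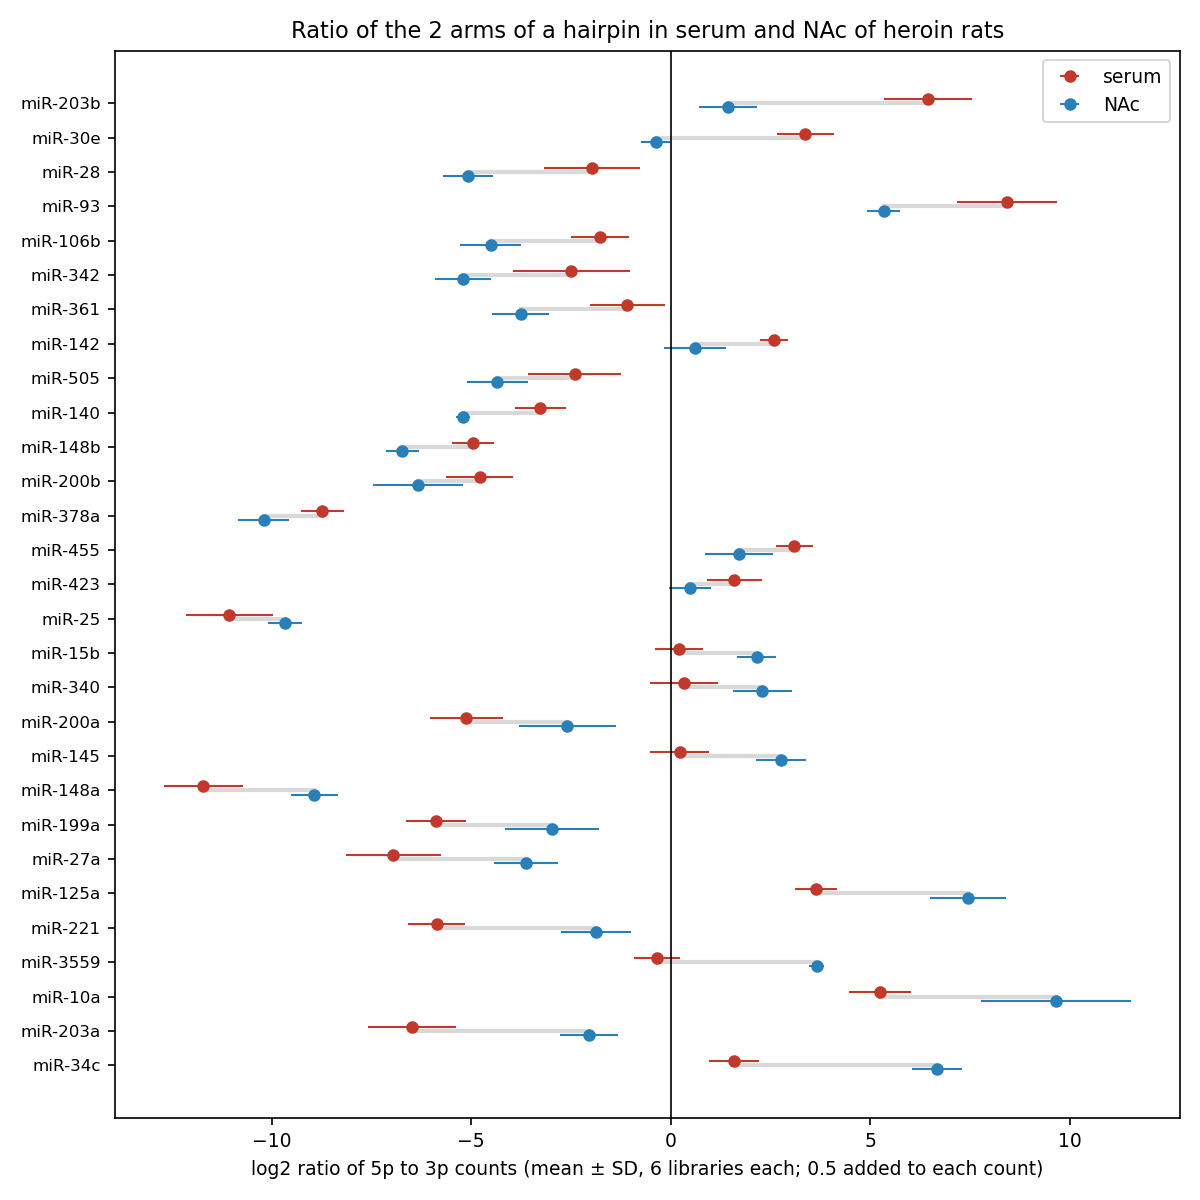
Mean log2 ratio of 5p to 3p counts (± SD over 6 libraries) in serum and NAc of heroin rats, for the 29 hairpins called both as deposited and after thinning to equal depth, with at least 10 counts of each arm in each tissue. The 2 points of miR-30e (3.37 in serum and -0.37 in NAc) and miR-3559 (-0.35 in serum and 3.66 in NAc) lie on either side of 0.

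With TMM scaling the names that differed least were miR-151-3p (-0.05), miR-99a-5p (0.08), miR-186-5p (-0.10), let-7i-5p (-0.12), miR-30b-5p (-0.12) and miR-26a-5p (-0.14), the smallest log2 fold changes among names with at least 100 CPM in both tissues. miR-26a-5p had 37676, 52036 and 73181 CPM in serum, against 19422, 26219.7 and 38846 CPM in NAc, and miR-186-5p had 383, 592 and 1407 CPM in serum, against 181, 320.0 and 619.6 CPM in NAc. All 6 were uncalled with TMM, and all 6 were called higher by library size alone and with NAc thinned. By library size their log2 fold changes were 0.96 for miR-151-3p, 1.24 for miR-99a-5p, 1.11 for miR-186-5p, 0.99 for let-7i-5p, 1.03 for miR-30b-5p and 0.96 for miR-26a-5p. On that scale miR-126a-3p (0.010) and miR-342-3p (0.13), both called lower with TMM, lay nearer to 0, so the ranking depends on the scaling.

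The same contrast was set side by side in saline rats, whose libraries are separate. There 384 of 424 names tested were called (90.6%), 143 higher and 241 lower. Of 419 names tested in both, 359 were called in the same direction, 1 in opposite directions, 26 in heroin rats alone, 19 in saline rats alone and 14 in neither. Log2 fold changes had a Pearson correlation of 0.965 across these names, a description in which names are not independent, with a median absolute difference of 0.69. The difference between the contrasts was tested as the interaction of tissue and treatment in 24 libraries. None of 489 names passed with edgeR's quasi-likelihood test (39 had an unadjusted p under 0.05, and the smallest adjusted p was 0.075). DESeq2 called 1, and leaving out 1 library gave 0 to 3 calls, with 3 without serum saline replicate 8 or 9 or without NAc heroin replicate 3. With repeats named once, the 3 smallest p-values were those of miR-329-5p, miR-34c-3p and miR-9a-5p. For miR-9a-5p the interaction was -3.01 ± 0.84 on the log2 scale (SE, adjusted p = 0.13): serum of heroin rats held 70.9, 89.4 and 146 CPM, and serum of saline rats 38.1, 449.5 and 3195 CPM. miR-34c-3p had an interaction of 2.88 ± 0.70 (adjusted p = 0.075), with serum at 22.1, 69.1 and 117 CPM in heroin rats and 6.35, 19.9 and 29.9 CPM in saline rats.

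Over 369 tested names with a RefSeq sequence, repeats left out, the median GC content was 45.5% for names higher in serum, 47.8% for names lower and 47.6% for all. The first base was U in 44.7% of the higher, 40.9% of the lower and 42.0% of all names. The motif GGAG, looked for on the miRNA's own strand because it has been linked to loading into exosomes in human cells, stood in 8.77% of the higher, 9.33% of the lower and 9.21% of all names, which is a count of letters and not of binding.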

How the data were processed

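Small RNA inserts of 18 to 40 bp were sequenced from 36 libraries, per the labels' protocols. The authors deposited read counts per miRNA name and TPM values per name, per the file headers. TPM equalled the count divided by the library total and multiplied by 1000000, within a relative difference of 4.9e-15, and is called CPM here. Per the submitters' processing notes, Bowtie and the build rn6 appear, with no role or version. How reads that match several miRNAs, or either strand, were counted is not given in the sources used here. No sequence by coordinates was read for rn6; RefSeq sequences are of GRCr8 and matched 642 of 706 annotated names.

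Groups came from the treatment and tissue labels. Counts were tested with edgeR 4.0.16 in R 4.3.3 (quasi-likelihood test, TMM, filterByExpr with a minimum count of 10, Benjamini-Hochberg adjustment at 0.05) on the 12 libraries, and in the same way in saline rats and for the interaction. The standard error is the log2 fold change over the square root of F. On simulated counts for this comparison (433 names), 90% of 90 names changed by 1.5 log2 units and 100% of 106 changed by 3 were called, with 6 calls among 237 unchanged. The simulation gave both tissues a shared mean profile, left most names unchanged and drew changes up and down alike. In these data most names differ and more are lower, so its rates do not carry over to them. Arm ratios added 0.5 to each count. No 2 replicates agreed within sampling noise (smallest chi-square per degree of freedom 56.7 over 30 pairs). Total counts bound the precision. Floors cover counting error only, while standard errors and SDs include the spread between libraries. Alternatives used DESeq2 1.42.0 and limma 3.58.1.

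The 21 lists, tests and the naming rule were chosen with earlier results of these data known. The rule names the 12 largest changes each way (mean CPM in the higher tissue 100 or more), the 10 leaders of each tissue, up to 5 members per list with the smallest p, the 6 most alike names, the 3 smallest interaction p-values, the 5 largest arm shifts each way and the 5 neuron-enriched names highest in serum; not all are printed. Other names (miR-124-3p, miR-150-5p, miR-155-5p, miR-16-5p, miR-208a-3p, miR-208b-3p, miR-23a-3p, miR-23b-3p, miR-27a-3p, miR-27b-3p, miR-30e-5p, miR-32-5p, miR-342-3p, miR-34a-5p, miR-494-3p, miR-499-5p, miR-92a-3p and miR-92b-3p) were chosen after their values were seen. 3 of 196 list names were not found in the table.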

Additional observations from a re-analysis of the deposited data

Results flagged for a closer look

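The printed miRNAs were checked in each tissue for 1 library that stands apart from the other 5 (Dixon's test at the 95% level). Of 194 sets of 6 libraries 23 did (11.9%). The test's rate of 1 in 20 holds for independent sets of normally distributed values. These sets are CPM values of names from the same libraries, partly named for their large changes. Some sets have counts in 1 library alone. The 11.9% therefore cannot be set against 1 in 20. Of the 23 sets, 12 had as the library apart the one labelled NAc heroin replicate 2. In it miR-122-5p was at 97.0 CPM, miR-10b-5p at 81.1, miR-206-3p at 38.8, miR-200a-3p at 24.3, miR-142-3p at 13.9, miR-141-3p at 1.02 and novel_644 at 1.36 CPM, each above the other 5 NAc libraries, as were miR-24-3p at 996.7, miR-29b-3p at 424 and miR-27a-3p at 196 CPM. In the same library miR-7b at 2969 CPM and let-7f-5p at 42618 CPM were below the others. Without it, the log2 fold change of miR-122-5p was 10.05 in place of 7.12, and the list counts changed by at most 1 name in the lists of the report.

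In the library labelled NAc heroin replicate 3, miR-34c-5p was at 622 CPM (60.8 to 180.2 in the others), miR-34c-3p at 4.80 and miR-449a-5p at 1.26 CPM. In NAc heroin replicate 5 miR-758-3p was at 316 CPM. Among serum libraries, replicate 3 had let-7f-5p at 61377 CPM, miR-7b at 24.6 and miR-329-5p at 6.16 CPM. Replicate 6 had miR-199a-3p at 7397 and miR-448-3p at 1.63 CPM, and replicate 1, the deepest, had miR-758-3p and miR-338-3p at 0.720 CPM where the others had none.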

How the results depend on the processing

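The count of 405 names called ranged from 372 to 511 under other scalings, filters, tests and with repeats counted once, and 380 to 425 with 1 library left out. It was 269 (142 lower) with NAc thinned to serum depth, where 290 names could be tested. Of the names called, 14 had the opposite sign by library size alone and 15 with NAc thinned. Without NAc replicate 5 or 6 the median over all names was -1.36 or -1.39 in place of -2.18. No pairing was assumed: same-numbered libraries had correlations of -0.034 to 0.357, 1 of 6 serum libraries correlated best with its own number, and a replicate block gave 396 calls. The interaction called 0 names, 1 with DESeq2 (1 lower) and 0 to 3 with 1 library left out (0 to 2 higher, 0 to 3 lower): 3 without serum saline replicate 8 or 9 or NAc heroin replicate 3, 2 without NAc saline replicate 12, and 1 without serum heroin replicate 3 or serum saline replicate 7. Arm calls were 38 with arms thinned to equal depth and 47 with repeated names left out, both chosen after seeing the data, 26 with at least 100 counts of both arms, where fewer hairpins were tested, and 0 with sign flips over same-numbered libraries as a replicate block, whose smallest p is 0.031.

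Names near 0 changed sign, and the cause was not tested beyond the shift of all names that a scaling brings. On the log2 scale, by library size alone the values were let-7g-5p 0.99, let-7i-5p 0.99, miR-126a-3p 0.010, miR-151-3p 0.96, miR-186-5p 1.11, miR-26a-5p 0.96, miR-29a-3p 0.29, miR-30b-5p 1.03, miR-342-3p 0.13, miR-34c-5p 0.27 and miR-494-3p 0.34. With NAc thinned the values were let-7g-5p 1.59, let-7i-5p 1.62, miR-126a-3p 0.62, miR-148b-3p 0.42, miR-151-3p 1.71, miR-186-5p 1.65, miR-26a-5p 1.64, miR-27b-3p 0.19, miR-29a-3p 0.92, miR-30b-5p 1.65, miR-342-3p 0.73, miR-34c-5p 0.73 and miR-494-3p 0.91. With the stricter filter the values were let-7i-5p 0.060, miR-151-3p 0.13, miR-186-5p 0.077, miR-26a-5p 0.023 and miR-30b-5p 0.030. With TMMwsp factors the values were miR-186-5p 0.055 and miR-30b-5p 0.080. miR-99a-5p was at -0.065 with DESeq2 size factors and with DESeq2, and at -0.061 without a filter. With 1 library left out the ranges were let-7g-5p -0.33 to 0.36, let-7i-5p -0.26 to 0.41, miR-151-3p -0.43 to 0.40, miR-186-5p -0.28 to 0.52, miR-26a-5p -0.24 to 0.40, miR-30b-5p -0.28 to 0.39 and miR-99a-5p -0.086 to 0.53.

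Serum depth limits what can be seen: in the shallowest library 1 count is 6.16 CPM, and 28 tested names had no serum count.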
